A study of Mus musculus with 3 samples.

Results

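The genes described here are 9 genes of the blood vessel wall and its main growth signal, *Pecam1*, *Cdh5*, *Emcn*, *Kdr*, *Flt1*, *Tek*, *Tie1*, *Eng* and *Vegfa*. They were chosen by symbol, and all 9 were found among the 26970 genes of the deposited table. RNA was sequenced from mandibular condyles, cartilage and subchondral bone together, of 4-month-old mice that were wild type (WT, +/+), heterozygous for a global knockout of *Dspp* (Dspp+/-, labelled HE) or homozygous for it (Dspp-/-, labelled HO). The knockout line is kept on the C57BL/6 background, and it lacks *Dspp* in the whole body rather than in 1 cell type. Each genotype has 1 column of values and is treated as 1 library, although the labels also speak of triplicates. For WT and Dspp+/- tissue of 3 animals was pooled into the sample, and for Dspp-/- the number of animals is not given in the sources used here.

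With 1 library per genotype, no test between genotypes was possible, and every difference below is a difference between single libraries. The values are FPKM, fragments scaled to the length of the gene and to the total of the library, and a fold is the ratio of 2 such values. Intervals are exact 95% intervals from the recovered fragment numbers, Clopper-Pearson for folds and Poisson for the levels of single libraries. They cover counting error only, and the spread between mice is unknown. Where 3 values follow each other, they are for the WT, the Dspp+/- and the Dspp-/- library, in this order. The libraries held 20241576, 23613621 and 22253158 fragments. Mitochondrial genes took 25.0%, 36.9% and 37.3% of the summed FPKM, and FPKM does not adjust for such a difference in composition. *Xist*, which cells of female mice express, was at 0.00551, 28.5 and 26.5 FPKM. The sex of the pooled animals and their genotype therefore cannot be told apart. *Dspp* was not analysed here and gave no check of the labels.

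Endothelial cells line blood vessels and hold to each other through adhesion proteins such as VE-cadherin and PECAM1. They carry receptors for VEGF, which drives vessel growth, and for the angiopoietins, which govern how stable a vessel is. In growing bone, vessels enter calcified cartilage from the marrow side, hypertrophic chondrocytes and osteoblasts are well-known sources of VEGF, and the capillaries near the growth front are rich in PECAM1 and endomucin. Articular cartilage normally has no vessels, while bone, marrow and the soft tissue around a joint do. In bulk tissue such as this, fewer cells of a type and less RNA per cell cannot be told apart.

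All 9 genes were well covered, from 648 fragments for *Emcn* in Dspp+/- to 6133 for *Flt1* in the same library, and each of the 8 endothelial genes was present in every library. In WT the order of the levels was *Cdh5*, *Eng*, *Vegfa*, *Pecam1*, *Tie1*, *Flt1*, *Tek*, *Kdr* and *Emcn*. Among the 13026 genes that averaged 1 FPKM or more, *Cdh5* was above 94.6% in WT and *Emcn* above 52.6%. *Cdh5* was the highest of the 9 and *Emcn* the lowest in each library. Of all neighbours in these orders, only *Flt1* and *Tie1* in Dspp+/- did not differ beyond counting error, with a ratio of 1.003 (0.955 to 1.05). The next closest were *Tie1* over *Flt1* in Dspp-/- at 1.06 (1.003 to 1.11), *Tek* over *Kdr* in the same library at 1.07 (1.003 to 1.14) and *Flt1* over *Tek* in WT at 1.08 (1.01 to 1.15). Such ratios between genes also depend on the exon lengths used, 13504 bases for *Flt1* and 4712 for *Tek*, which the intervals do not cover. None of the 9 genes shared a 100-base sequence with another gene in GENCODE M21, and only *Eng* overlapped a gene there, with 1.51% of its exon bases lying over *Fpgs* on the other strand.

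**Figure D1:**
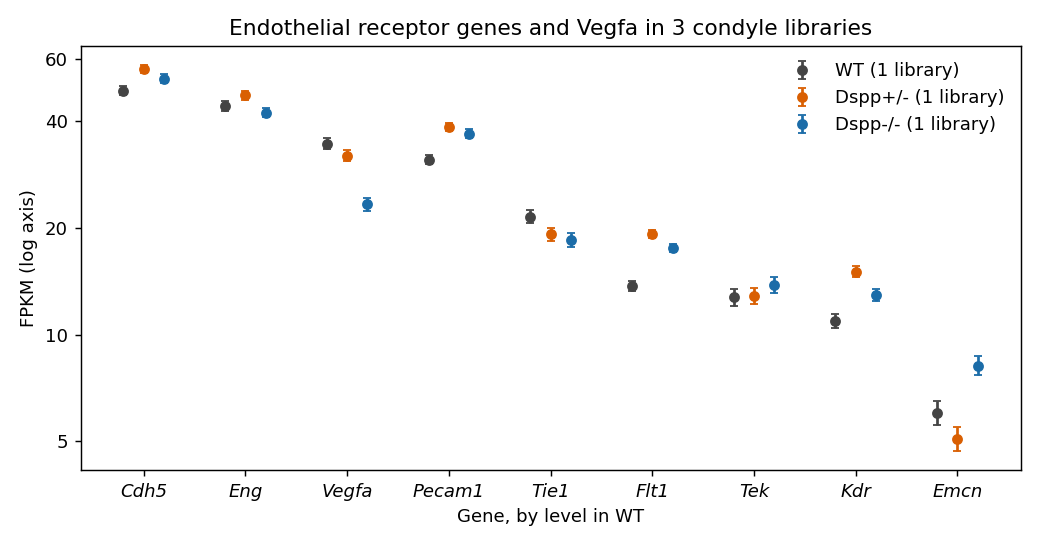
Level of each gene (FPKM, log axis) in the WT, Dspp+/- and Dspp-/- libraries, with genes ordered by their WT level. Points are single libraries and bars are 95% counting intervals. *Kdr*, *Flt1* and *Pecam1* lie higher in both mutant libraries than in WT, *Vegfa* is lowest in Dspp-/- and *Emcn* is highest there.

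The receptors for VEGF were the members with the highest fold to WT in Dspp+/-. *Kdr* (ENSMUSG00000062960) encodes VEGFR2, the receptor that carries most of the growth signal, and lies on chromosome 5 from 76093487 to 76139118 in the authors' table. It had 10.9 FPKM in WT, 15.0 in the Dspp+/- library and 12.9 in the Dspp-/- library. The WT library was the lowest, with Dspp+/- at 1.38 times its level (1.30 to 1.46) and Dspp-/- at 1.18 times (1.11 to 1.25). *Flt1* (ENSMUSG00000029648), on the same chromosome from 147498414 to 147662821, encodes VEGFR1, which binds VEGF tightly and is also made as a soluble decoy. A value per gene does not separate the soluble from the membrane form. Its level was 13.7 FPKM in WT, 19.2 in the Dspp+/- library and 17.5 in the Dspp-/- library, so it followed the order of *Kdr*. Dspp+/- stood at 1.40 times WT (1.34 to 1.46) and Dspp-/- at 1.28 times (1.22 to 1.33). Between the mutant libraries both receptors were lower in Dspp-/-, with folds of 0.859 (0.815 to 0.905) for *Kdr* and 0.912 (0.879 to 0.946) for *Flt1*.

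The ligand took another course. *Vegfa* (ENSMUSG00000023951), on chromosome 17 from 46327919 to 46343295, encodes VEGF-A, which binds both of these receptors. Its level was 34.6 FPKM in WT, 32.0 in the Dspp+/- library and 23.4 in the Dspp-/- library. Dspp-/- stood apart from the other libraries, while WT and Dspp+/- were close to each other. Dspp+/- was at 0.927 of WT (0.882 to 0.974) and Dspp-/- at 0.676 (0.640 to 0.714), and Dspp-/- had 0.729 of the Dspp+/- level (0.691 to 0.770). In Dspp-/- the log2 ratio of *Vegfa* to WT was -0.55, and 9.52% of the genes compared had a lower one.

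The receptors for angiopoietins differed from each other. *Tek* (ENSMUSG00000006386), on chromosome 4 from 94627526 to 94763213, encodes TIE2, the receptor that binds the angiopoietins. It had 12.7 FPKM in WT, 12.9 in the Dspp+/- library and 13.8 in the Dspp-/- library. These 3 values lay close together, with folds to WT of 1.01 (0.936 to 1.09) and 1.09 (1.01 to 1.17), and of 5 other scalings 3 put the first below 1 and 2 the second. *Tie1* (ENSMUSG00000033191), on the same chromosome from 118328388 to 118347258, encodes a related receptor that binds no angiopoietin by itself and modulates TIE2. It had 21.5 FPKM in WT, 19.2 in the Dspp+/- library and 18.5 in the Dspp-/- library, with WT the highest library. Its folds to WT were 0.892 (0.840 to 0.947) and 0.862 (0.810 to 0.916), and the mutant libraries were level with each other within counting error at 0.966 (0.909 to 1.03).

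Of the adhesion and surface genes, *Pecam1* was higher in both mutant libraries under the deposited values and all 5 other scalings, while the smaller difference of *Cdh5* depended on scaling. *Pecam1* (ENSMUSG00000020717), on chromosome 11 from 106545043 to 106641454, encodes an adhesion protein of endothelial junctions that platelets and leukocytes carry as well. It had 31.2 FPKM in WT, 38.6 in the Dspp+/- library and 37.0 in the Dspp-/- library, with folds of 1.23 (1.19 to 1.29) and 1.18 (1.14 to 1.23). *Cdh5* (ENSMUSG00000031871), on chromosome 8 from 104828257 to 104871143, encodes VE-cadherin, the cadherin of endothelial junctions. It had 48.9 FPKM in WT, 56.2 in the Dspp+/- library and 52.8 in the Dspp-/- library, with folds of 1.15 (1.10 to 1.20) and 1.08 (1.04 to 1.13). For *Cdh5*, scaling each library to a fixed sum of FPKM turned both folds to below 1, and so did a fixed sum without hemoglobin, immunoglobulin and muscle genes in Dspp-/-.

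*Emcn* (ENSMUSG00000054690), on chromosome 3 from 137046828 to 137137946, was the member that differed most between the mutant libraries. It encodes endomucin, a sialomucin of capillary and venous endothelium. Its level was 6.01 FPKM in WT, 5.07 in the Dspp+/- library and 8.17 in the Dspp-/- library, which rest on 658, 648 and 983 fragments. It was thus the lowest in Dspp+/- and the highest in Dspp-/-, on either side of WT. Dspp+/- had 0.844 of the WT level (0.756 to 0.942) and Dspp-/- 1.36 times that level (1.23 to 1.502). Dspp-/- was 1.61-fold higher than Dspp+/- (1.46 to 1.78), and 96.7% of all genes compared had a lower log2 ratio between those libraries.

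*Eng* (ENSMUSG00000026814) encodes endoglin, a co-receptor for BMP9 and TGF-beta on endothelium that some macrophages and early erythroid cells also carry. On chromosome 2 from 32536607 to 32572681, it had 44.2 FPKM in WT, 47.4 in the Dspp+/- library and 42.4 in the Dspp-/- library. The folds to WT lay on either side of 1, at 1.07 (1.03 to 1.12) and 0.959 (0.916 to 1.00). The direction in Dspp+/- turned with a fixed sum of FPKM and with a fixed sum without hemoglobin, immunoglobulin and muscle genes. In Dspp-/- it turned with a fixed sum without mitochondrial genes. The positions given are those of the authors' table, which names no build. They are not GRCm38 positions, as only 563 of the 26970 genes match GENCODE M21 in both ends.

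**Figure D2:**
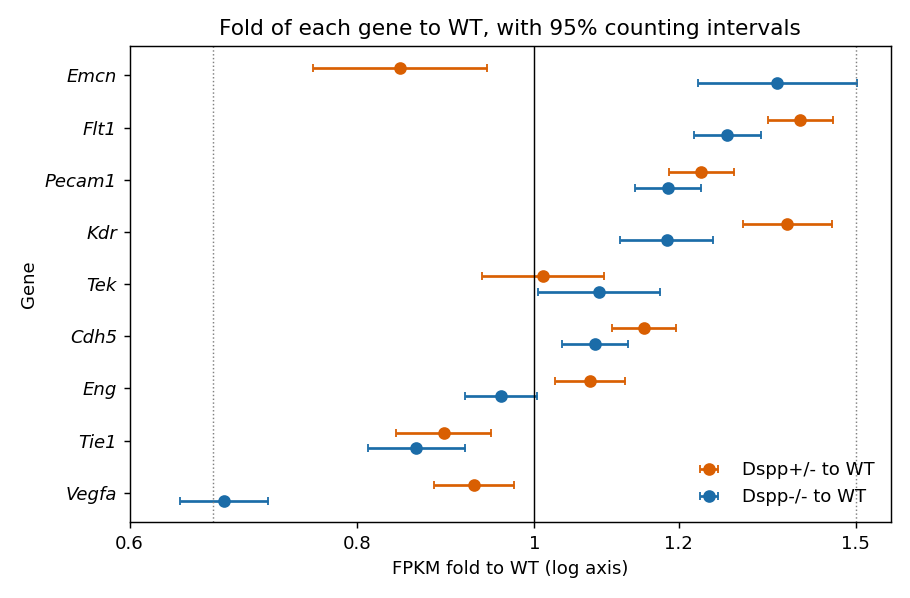
FPKM fold to WT (log axis) of the 9 genes in Dspp+/- and Dspp-/-, ordered by the Dspp-/- fold. Bars are 95% counting intervals and dotted lines mark 1.5-fold. *Flt1*, *Pecam1*, *Kdr*, *Cdh5* and *Tek* lie to the right of 1 in both, and *Tie1* and *Vegfa* to the left in both. *Emcn* and *Eng* lie on opposite sides. The intervals of *Tek* in Dspp+/- and of *Eng* in Dspp-/- hold 1. The sides of *Cdh5*, *Tek* and *Eng* depended on scaling.

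Upstream sequence was available for 7 of the 9 genes in the RefSeq promoter windows of GRCm38.p6, and *Pecam1* and *Cdh5* had no entry. The 250 bases before the start are shown for the VEGF receptors, which were higher in both mutant libraries, for *Emcn*, which went to either side of WT, and for *Vegfa*. They lie at chr5:75978456-75978705 and chr5:147726012-147726261, at chr3:137340828-137341077 and at chr17:46032378-46032627, on the minus strand except for *Emcn*, in positions that cannot be set beside those of the table. All are written in the direction of the gene, and capitals mark GGAAG, which holds the core letters of ETS factor sites, or CTTCC, the same letters on the other strand.
Kdr: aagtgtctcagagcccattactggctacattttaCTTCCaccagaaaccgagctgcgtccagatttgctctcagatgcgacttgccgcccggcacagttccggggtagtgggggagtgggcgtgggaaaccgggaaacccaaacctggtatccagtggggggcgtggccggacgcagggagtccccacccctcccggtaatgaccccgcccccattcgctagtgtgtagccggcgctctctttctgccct
Flt1: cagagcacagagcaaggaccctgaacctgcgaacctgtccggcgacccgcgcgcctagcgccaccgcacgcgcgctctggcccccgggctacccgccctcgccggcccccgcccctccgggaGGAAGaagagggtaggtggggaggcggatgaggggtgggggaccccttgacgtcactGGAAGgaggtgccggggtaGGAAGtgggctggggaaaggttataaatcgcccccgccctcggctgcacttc
Emcn: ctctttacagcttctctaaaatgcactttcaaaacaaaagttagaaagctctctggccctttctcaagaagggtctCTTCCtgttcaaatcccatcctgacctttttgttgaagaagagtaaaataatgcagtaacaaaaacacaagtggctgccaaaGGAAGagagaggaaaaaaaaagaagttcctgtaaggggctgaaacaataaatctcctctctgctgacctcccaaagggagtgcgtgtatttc
Vegfa: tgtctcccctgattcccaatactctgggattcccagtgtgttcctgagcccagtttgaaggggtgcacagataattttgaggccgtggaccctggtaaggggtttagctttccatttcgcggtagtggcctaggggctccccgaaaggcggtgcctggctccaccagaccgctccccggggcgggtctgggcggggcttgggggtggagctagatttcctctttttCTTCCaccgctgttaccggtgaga
GGAAG was searched on both strands and occurred in 7 of the 8 member windows, against 64.1% of all 32851 windows, so most promoters hold it. The window of *Flt1* held 3 matches and that of *Emcn* 2, those of *Kdr* and *Vegfa* 1 each. *Flt1* was the 1 member with TATAAA, found in 12.4% of all windows on either strand, and 70.4% of its window was G or C. The window of *Emcn* had 40.8% G or C, against 61.6% for *Kdr* and 59.2% for *Vegfa* and a median of 52.4% over all windows. ACGTG, a form of the core of the hypoxia response element, was in none of the windows shown. It was in 1 of the 8 member windows, beside 16.6% of all windows. That was a second window of *Vegfa*, with 218 of its 250 bases in exons of GENCODE M21. GCGTG, the other form of that core, was not counted. On either strand it can be read in the windows shown of *Kdr*, *Flt1* and *Emcn*.

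As a group, the 9 genes were near their WT levels. No member was 2-fold higher or lower on the log2(FPKM + 1) scale in Dspp+/- or Dspp-/-, where 7.75% and 5.42% of the 13026 genes were, nor between the mutant libraries, where 1.65% were. At 1.5-fold on that scale no member passed against WT either, while 20.5% of genes did in Dspp+/- and 17.1% in Dspp-/-. *Vegfa* in Dspp-/- did pass under 2 of the 5 other scalings, with log2 ratios of -0.72 under a fixed sum of FPKM and -0.71 under one without hemoglobin, immunoglobulin and muscle genes. Between the mutant libraries only *Emcn* passed 1.5-fold, 1 of 9 members beside 7.71% of all genes, and with a pseudocount of 5 its log2 ratio of 0.39 did not pass. The members' log2 ratios to WT had a median of 0.099 in Dspp+/-, with a range of -0.21 to 0.46, and of 0.11 in Dspp-/-, with a range of -0.55 to 0.39. Both medians were below 0 under a fixed sum of FPKM and under one without hemoglobin, immunoglobulin and muscle genes. Over all genes compared the medians were 0.058 and 0.0070. Between Dspp-/- and Dspp+/- the members had a median of -0.088 and all genes -0.037.

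In Dspp+/-, 6 of the 9 genes were higher than in WT by any amount, beside 56.3% of all genes, and in Dspp-/- also 6, beside 50.7%. These shares are near the background. In Dspp-/- against Dspp+/-, 2 of 9 were higher, *Emcn* and *Tek*, beside 44.7%. Scaling to a fixed sum of FPKM moved the median of all genes to -0.12 in Dspp+/- and -0.14 in Dspp-/-, and it left 3 and 4 members above WT. Set against the median of all genes, which moves with the scaling, *Flt1*, *Kdr*, *Pecam1*, *Cdh5* and *Eng* lay above it in Dspp+/- and *Tie1*, *Vegfa*, *Emcn* and *Tek* below it. In Dspp-/- *Flt1*, *Kdr*, *Pecam1*, *Cdh5*, *Emcn* and *Tek* lay above it and *Eng*, *Tie1* and *Vegfa* below it. Both comparisons use the same WT library.

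A ratio of 2 genes within a library does not depend on how libraries are scaled. The 7 pairs compared were chosen after the values were seen. The ratio of *Vegfa* to *Kdr*, ligand to receptor, was 3.16 in WT and 2.13 and 1.81 in the mutant libraries. It was lower in both mutant libraries by more than counting error, at 0.673 (0.624 to 0.726) and 0.572 (0.528 to 0.620) of WT. For *Vegfa* to *Flt1* the values were 0.662 (0.621 to 0.707) and 0.530 (0.494 to 0.568) of WT. The ratio of *Flt1* to *Kdr*, between the receptors, was 1.26 in WT and 1.28 and 1.36 in the mutant libraries. In Dspp+/- it was within counting error of WT, with 1.02 (0.948 to 1.09), and in Dspp-/- just above it, with 1.08 (1.00 to 1.16).

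The ratio of *Tek* to *Tie1* was 0.593, 0.672 and 0.747, which for the mutant libraries is 1.13 (1.03 to 1.25) and 1.26 (1.14 to 1.39) times WT. *Emcn* to *Pecam1*, the genes whose proteins are used together to mark vessels of bone, was 0.192, 0.132 and 0.221. Dspp+/- was thus at 0.684 (0.608 to 0.769) of WT and Dspp-/- at 1.15 times WT (1.03 to 1.28). *Emcn* to *Cdh5* gave 0.735 (0.654 to 0.827) and 1.26 (1.13 to 1.40), so the opposite sides of *Emcn* held against either junction gene. *Eng* to *Cdh5* was at 0.934 (0.880 to 0.992) and 0.888 (0.835 to 0.945) of WT.

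**Figure D3:**
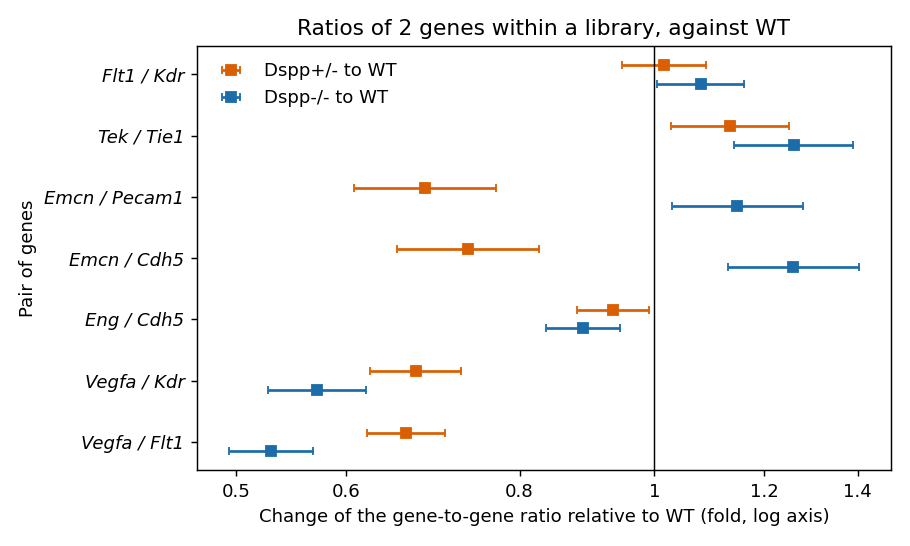
Ratio of 2 genes within a library, in Dspp+/- and Dspp-/- relative to the same ratio in WT (fold, log axis), with exact 95% counting intervals. The *Vegfa* ratios lie left of 1 in both mutant libraries, and the *Emcn* ratios lie left of 1 in Dspp+/- and right of it in Dspp-/-.

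Other genes of the same pathways were taken from hand-written lists, and each count at 1.5-fold below is on the log2(FPKM + 1) scale, which understates differences of low genes, and can be read against 20.5% of all genes in Dspp+/- and 17.1% in Dspp-/-. Of 4 other VEGF family ligands, 1 was at least 1.5-fold lower in both mutant libraries and none higher. The gene was *Pgf*, placental growth factor, a ligand of VEGFR1, with 4.66, 1.59 and 1.61 FPKM. *Vegfb*, another ligand of VEGFR1 and the most abundant of the family, had 53.5, 79.6 and 46.1 FPKM, with folds to WT of 1.49 (1.40 to 1.58) and 0.860 (0.804 to 0.921). *Vegfd* passed 1.5-fold in Dspp+/- by the ratio of FPKM alone, at 1.52 (1.15 to 2.03). The medians of the list's log2 ratios were 0.16 and -0.25. Of 3 genes for neuropilins and VEGFR3, *Nrp2*, which osteoclasts and neurons also express, had 44.2, 23.6 and 29.6 FPKM. It was the 1 gene of the list past 1.5-fold in Dspp+/-, and none was in Dspp-/-. *Nrp1*, the co-receptor of VEGFR2, was at 10.7, 12.1 and 11.2 FPKM, and the medians of the list were 0.022 and 0.053.

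In the angiopoietin axis, 1 of 4 genes was at least 1.5-fold higher in both mutant libraries. It was *Angpt1*, the activating ligand of TIE2, with 1.73, 3.50 and 3.21 FPKM, folds of 2.03 (1.70 to 2.42) and 1.86 (1.55 to 2.23). *Ptprb*, the phosphatase VE-PTP that acts on TIE2, had 19.98, 23.5 and 24.8 FPKM, and *Angpt4* 13.4, 11.1 and 10.5. *Angpt2*, the other main ligand of TIE2, was at 0.624 of WT in Dspp+/- (0.533 to 0.730) by the ratio of FPKM and did not pass on the log2 scale. The medians were -0.012 and -0.0097. Of 7 genes around endoglin, 2 were at least 1.5-fold lower and none higher in each mutant library, with medians of -0.37 and -0.24. In Dspp+/- these were *Id3* and *Smad9*, and in Dspp-/- *Id3* and *Id1*. *Id3*, a target of BMP signalling in many cell types, had 156, 71.6 and 79.0 FPKM. *Id1*, another such target, had 39.8, 28.8 and 18.1 FPKM, and *Smad9*, a BMP transducer, 4.57, 2.50 and 2.90. In Dspp-/- *Smad9* was at 0.635 of WT (0.552 to 0.730), past 1.5-fold by the ratio of FPKM alone.

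Of 6 genes of the Notch axis, 2 were at least 1.5-fold lower in Dspp+/-, none in Dspp-/-, and none was higher in either, with medians of -0.15 and -0.16. *Hey1*, a Notch target of arteries and also of bone cells, had 17.4, 7.67 and 12.6 FPKM, and *Heyl* 7.43, 4.54 and 5.56. *Jag1*, a Notch ligand, had 9.15, 7.94 and 9.57 FPKM. Of 9 junction genes, *Ctnnb1*, the beta-catenin gene, was the 1 past 1.5-fold in Dspp+/-, with 143, 90.2 and 106 FPKM, and none was past it in Dspp-/-. *Ctnnd1*, which encodes p120-catenin, was at 0.657 of WT in Dspp+/- (0.587 to 0.734), past it by the ratio of FPKM alone. *Jam2*, a junctional adhesion molecule, had 30.1, 26.9 and 28.1 FPKM, and the list's medians were -0.11 and -0.094.

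Genes of oxygen sensing and their targets were described because hypoxia is a known inducer of *Vegfa*. Of 8 sensing genes, 1 was at least 1.5-fold higher and 1 lower in Dspp+/-, and none in Dspp-/-, with medians of 0.053 and -0.025. *Egln3*, a prolyl hydroxylase that hypoxia induces, had 24.6, 44.9 and 30.1 FPKM. *Hif1a*, the hypoxia factor itself, had 23.7, 15.3 and 22.9 FPKM. *Epas1*, which encodes HIF2-alpha and is strong in endothelium, had 66.3, 81.6 and 67.0 FPKM, and *Egln1*, another hydroxylase, 63.9, 84.3 and 55.9. *Egln2* was at 0.666 of WT in Dspp-/- (0.614 to 0.721), past 1.5-fold by the ratio of FPKM alone.

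Of 11 hypoxia targets averaging 1 FPKM or more, 3 were at least 1.5-fold lower in Dspp+/- and 4 in Dspp-/-, and none was higher, with medians of -0.17 and -0.13. *Ddit4*, an inhibitor of mTOR signalling that other stresses and glucocorticoids also induce, had the lowest ratios, with 150, 49.8 and 43.0 FPKM. *Ndrg1* had 31.6, 18.9 and 18.0 FPKM and was lower by that threshold in both. *Pfkfb3*, a regulator of glycolysis, was lower in Dspp+/- alone by it, with 10.4, 6.47 and 12.4 FPKM. *P4ha1*, a collagen prolyl hydroxylase with 36.3, 26.2 and 22.5 FPKM, and *Slc2a1*, the glucose transporter GLUT1 with 8.29, 6.31 and 4.61 FPKM, were past it in Dspp-/-. *Ldha*, the most abundant target, had 174, 158 and 159 FPKM. *Adm*, adrenomedullin, was at 0.663 of WT in Dspp-/- (0.470 to 0.931), past the threshold by the ratio of FPKM alone.

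**Figure D4:**
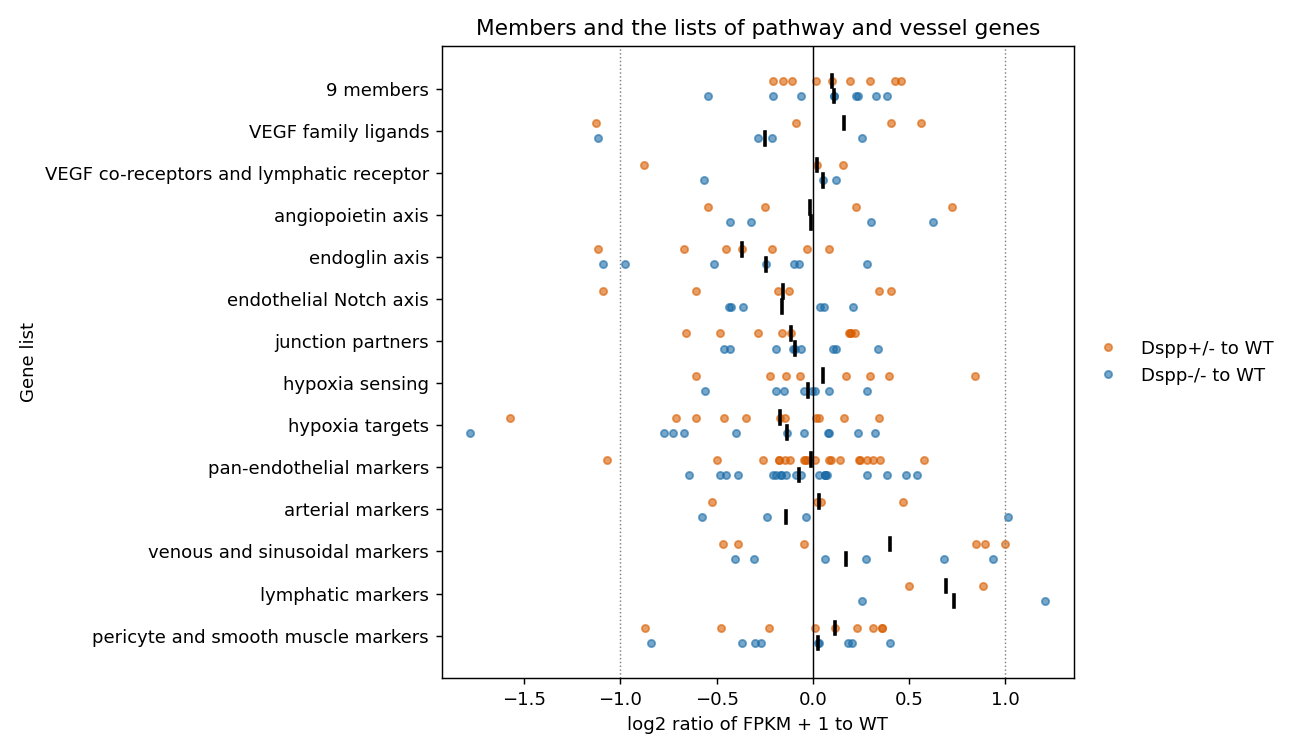
Log2 ratio of FPKM + 1 to WT for the 9 members and for each list of pathway and vessel genes averaging 1 FPKM or more, in Dspp+/- and Dspp-/-. Points are genes, black bars are medians and dotted lines mark 2-fold. The medians of the members are 0.099 and 0.11, and those of the pan-endothelial markers -0.010 and -0.074.

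A separate list of 20 pan-endothelial markers had medians of -0.010 and -0.074. Under the deposited values, 10 of the 20 were above WT and 10 below it in Dspp+/-, and 9 and 11 in Dspp-/-. *Plvap*, the diaphragm protein of fenestrated endothelium and the most abundant of them in WT, was the 1 gene past 1.5-fold on the log2(FPKM + 1) scale in either, with 61.4, 28.8 and 39.0 FPKM. By the ratio of FPKM, *Vwf* in Dspp+/- at 1.60 (1.4999 to 1.70) and *Sox7* in Dspp-/- at 1.56 (1.35 to 1.81), both named after their values were seen, passed as well. *S1pr1*, a lipid receptor, had 49.0, 49.4 and 46.1 FPKM, and *Sox18*, an endothelial transcription factor, 40.7, 39.7 and 42.6. The summed FPKM of the list was 297, 266 and 273. Of 9 markers of pericytes and smooth muscle, the cells around the vessels, 1 was at least 1.5-fold lower in each mutant library and none higher. This was *Cspg4*, named after its values were seen, with 17.5, 9.10 and 9.32 FPKM. The list's medians were 0.12 and 0.025, and the sum, led by *Des*, *Rgs5* and *Pdgfrb*, of which skeletal muscle also expresses *Des*, was 823, 999.8 and 768 FPKM.

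The medians of blood, cartilage and bone cell markers lay farther from 0 than those of the members. Blood cell markers were higher in both mutant libraries. The summed FPKM of 8 platelet and megakaryocyte markers, led by *Ppbp*, *Pf4* and *Gp1ba*, was 25.3, 133 and 143, and all 8 were at least 1.5-fold higher in both, with medians of 1.74 and 1.49. All 6 erythroid markers, led by *Hbb-bs*, *Hba-a1* and *Slc4a1*, summed to 823, 3467 and 3305 FPKM (medians 2.62 and 2.32), and all 7 neutrophil markers, led by *S100a9*, *Ngp* and *S100a8*, to 589, 2555 and 3454 (medians 1.97 and 2.52). Since blood cells also express *Pecam1*, and some of them *Eng*, these sums stand beside the members' values, and their part in them was not tested.

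Bone and cartilage markers were lower. Of 9 chondrocyte markers averaging 1 FPKM or more, led by *Col2a1*, *Comp* and *Col10a1*, 8 were at least 1.5-fold lower in each mutant library (medians -2.80 and -1.04). *Matn1* of that list was at 0 in Dspp+/-, and no other gene of the marker lists was at 0 in any library. The chondrocyte sum was 1655, 467 and 742 FPKM. All 8 osteoblast markers passed that threshold in Dspp+/- and 6 in Dspp-/-, and of 7 osteoclast markers 7 and 4, all lower. The osteoblast markers, led by *Col1a1*, *Col1a2* and *Spp1*, summed to 15212, 4154 and 8376 FPKM (medians -1.71 and -0.89), and the osteoclast markers, led by *Ctsk*, *Acp5* and *Mmp9*, to 2239, 798 and 1305 (medians -1.28 and -0.60). The sums for these 3 cell types were lowest in Dspp+/-. Skeletal muscle markers, led by *Acta1*, *Tnnt3* and *Mylpf*, summed to 9857, 13603 and 11171 FPKM (medians 0.42 and 0.072). Of these 7, *Myh2* was at least 1.5-fold higher and *Myh4* lower in Dspp+/-, both named after their values were seen, and none passed in Dspp-/-. All 4 adipocyte markers averaging 1 FPKM or more were past 1.5-fold higher in Dspp-/-, while in Dspp+/- 2 were lower, *Cfd* and, named after its values were seen, *Plin1*, and none higher. The adipocyte list, led by *Cfd*, *Adipoq* and *Cidec*, summed to 33.2, 17.4 and 90.0 FPKM (medians -0.50 and 1.29). The part of these cell types in the values of the members was not tested.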

How the data were processed

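Poly(A)-selected RNA from condyles was sequenced as paired 150-base reads by CapitalBio Technology. The processing notes of the submitters name FastQC 0.11.5, HISAT2 2.1.0, StringTie 1.3.3b and DESeq 1.28.0, and as genome build a human one, although the genes carry mouse Ensembl identifiers. The annotation and filters are not given in the sources used here. The authors deposited 1 value per gene and library, with no unit named, read here as FPKM. Multiplied by the merged exon length in GENCODE M21, which 26652 of the 26970 genes matched, the values gave fragment numbers within 0.05 of a whole number for 98.6% to 98.7% of genes under 100 fragments. Depth and fragments were recovered from this step, which was tested on simulated data.

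Log2 ratios, and all counts at 2-fold or 1.5-fold, are of FPKM + 1, over the 13026 genes averaging 1 FPKM or more. Ratios of genes have exact conditional intervals. Members, 21 gene lists with 158 genes, of which 157 were in the table, and the named pairs were chosen with earlier results of these data known. All members are named, as are list genes past 1.5-fold against WT in the pathway lists with the 2 most abundant of each, and in addition, chosen after their values were seen, genes past 1.5-fold by the ratio of FPKM alone, and the 3 most abundant of each marker list. For *Kdr* and *Vegfa* the 3 genes nearest in both log2 ratios to WT are named. The 11 alternatives covered 2 pseudocounts, 5 scalings, 2 filters, a 1.5-fold threshold and the members without *Vegfa*. The methods give a Kruskal-Wallis test, which 1 library per genotype cannot enter. Calculations used scipy 1.17.1, pandas 2.3.3 and numpy 2.4.6 under Python 3.11.15, and plots matplotlib 3.10.9. *Dspp* and *Gdf2* were not analysed here.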

Additional observations from a re-analysis of the deposited data

How the results depend on the processing

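The median log2 ratio of the members depended on scaling. Scaling to a fixed sum of FPKM gave -0.12 in Dspp+/- and -0.056 in Dspp-/- against WT, and a fixed sum without hemoglobin, immunoglobulin and muscle genes gave -0.091 and -0.048, all with the sign turned. Median-ratio scaling gave 0.032 in Dspp+/-. The other alternatives kept the sign of these medians, as did every alternative between Dspp-/- and Dspp+/-. Of 189 values of single members under the alternatives, 13 changed sign, none of them for *Flt1*, *Kdr*, *Pecam1*, *Emcn* or *Vegfa*, and of 567 list medians 42 did. The 1.5-fold call of *Emcn* between the mutant libraries was lost with a pseudocount of 5.

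The 1009, 706 and 215 genes at least 2-fold different in Dspp+/- against WT, Dspp-/- against WT and Dspp-/- against Dspp+/- became 1576, 1199 and 437 with a pseudocount of 0.1, 341, 181 and 72 with a pseudocount of 5, 553, 338 and 109 among genes averaging 5 FPKM or more, and 2667, 2222 and 1004 at 1.5-fold. With no filter the last count was 342. Of the genes past 2-fold, 63.0% were higher in Dspp+/- and 74.6% in Dspp-/-. With a fixed sum these were 42.7% and 55.9%, and without hemoglobin, immunoglobulin and muscle genes 45.2% and 56.5%. No paired analysis was possible because each genotype has 1 library. Depth was no limit for the members, while the spread between mice is unknown.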

Other observations

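Markers of kinds of vessel gave a mixed picture. Values are again in the order WT, Dspp+/- and Dspp-/-. Of 4 arterial markers averaging 1 FPKM or more, *Sema3g*, *Efnb2* and *Gja4* were the most abundant, and the medians were 0.032 in Dspp+/- and -0.14 in Dspp-/-. *Sema3g* had 8.74, 8.87 and 7.27 FPKM, *Efnb2*, the ephrin of arteries, 6.88, 7.12 and 6.67, and *Gja4*, a gap junction gene, 5.69, 3.64 and 3.49. *Bmx*, a kinase named after its values were seen, was the 1 arterial marker past 1.5-fold on the log2(FPKM + 1) scale, in Dspp-/-, with 0.879, 1.60 and 2.79 FPKM. By the ratio of FPKM *Bmx* passed in Dspp+/- too, at 1.82 (1.31 to 2.56), and *Gja4* in both, at 0.641 (0.513 to 0.799) and 0.614 (0.488 to 0.771). Of 6 venous and sinusoidal markers, led by *Ephb4*, *Stab1* and *Nr2f2*, 3 were at least 1.5-fold higher on the log2 scale in Dspp+/- and 2 in Dspp-/-. None was lower by that threshold, and the medians were 0.40 and 0.17. By any amount, 3 were higher and 3 lower in Dspp+/-, and 4 and 2 in Dspp-/-. The summed FPKM of all 7 genes of the list was 37.4, 35.7 and 34.6, lower in both mutant libraries. *Ephb4* had 17.3, 13.0 and 13.8 FPKM, *Stab1* 12.5, 8.73 and 9.17 and *Nr2f2* 3.49, 3.35 and 3.70. The genes past the threshold were *Ackr1*, *Selp* and *Stab2* in Dspp+/-, the last 2 also in Dspp-/-, all named after their values were seen. *Selp*, which platelets also carry, had 0.694, 2.15 and 1.72 FPKM, and *Ackr1* 2.60, 5.49 and 3.36. *Stab2*, a scavenger receptor of sinusoids, had 0.395, 1.79 and 1.67 FPKM, folds of 4.53 (3.50 to 5.94) and 4.22 (3.25 to 5.55). The lymphatic list had 2 genes averaging 1 FPKM or more, with medians of 0.69 and 0.73, and *Ccl21a* alone was past 1.5-fold on the log2 scale. *Ccl21a*, a chemokine of lymphatic endothelium, had 3.12, 6.62 and 8.52 FPKM, and *Lyve1* 2.28, 3.64 and 2.93, a ratio to WT of 1.59 (1.29 to 1.98) in Dspp+/-, while *Reln* was under a mean of 1 FPKM. The markers of blood cells were higher in the same libraries, and their part in these values was not tested.

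Among 7130 genes averaging 5 FPKM or more, those nearest to *Kdr* in their pair of log2 ratios to WT over the 3 libraries were *Echs1*, *Zdhhc23* and *Tmx2*. The nearest to *Vegfa* were *Clec3b*, *Snrnp70* and *Ndufa2*. With 3 libraries such likeness is loose, as 39 genes lay within 0.05 of *Kdr* and 26 within 0.05 of *Vegfa*.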
